A study of Mus musculus with 20 samples.

Results

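NRF2, the transcription factor encoded by Nfe2l2, 7 genes that it is known to switch on, and the metallothioneins Mt1 and Mt2 were followed in the livers of adult sons of mice kept at 4 temperatures in gestation. The 10 genes were chosen by symbol, and each had exactly 1 row among the 22206 transcript clusters of the array table, of which 19572 carry 1 symbol. A transcript cluster is the set of probes that the array's design assigns to one transcribed locus. Affymetrix arrays measured liver RNA of 20 male C57BL/6NCr mice, an inbred strain, 1 mouse per array, at an age of 4 to 5 months. Each of the 4 groups holds 5 sons of wild-type dams kept in gestation at an ambient temperature of 10, 18, 23 or 30 °C. Before breeding, dams had been acclimated for 3 weeks at 30 °C or for 2 weeks at 18 or 10 °C, and sires had spent 3 days at the same temperature. Temperature in gestation therefore cannot be told apart from these exposures of either parent before breeding. Dams at 23 °C, the usual temperature of an animal house, gave the controls. On the day of birth every litter went to 23 °C, and all sons lived there on chow, so that no group differed in temperature when the liver was taken. Groups are named below by the dam's temperature, and single mice by that temperature and their number in the labels (mouse 10_6 is number 6 of the 10 °C group). The labels name no litter, dam, array batch, feeding state or time of day, so p-values measure only the spread between these arrays. Littermates, if present, would make those p-values too small.

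NRF2 is held in the cytoplasm by Keap1, which marks it for degradation through a Cul3 ubiquitin ligase. Oxidants and electrophiles modify Keap1, and NRF2 then accumulates, pairs with a small Maf protein and binds antioxidant response elements near its target genes. The targets make glutathione (Gclc, Gclm), reduce thioredoxin, overoxidised peroxiredoxins and quinones (Txnrd1, Srxn1, Nqo1), break down haem (Hmox1) and restrain growth under oxidative stress (Osgin1). Metallothioneins are small cysteine-rich proteins that bind zinc, copper and cadmium. Their genes are driven by the zinc sensor Mtf1 through metal response elements and, in liver, also by glucocorticoids and inflammatory cytokines.

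The promoters of Mt1 and Mt2 are shown because these genes varied more between single mice than any other member and varied together. RefSeq windows (GRCm38.p6) run from 250 bases before to 50 bases after the start site, and 8 of the 10 members had one. Both windows lie on the plus strand of chromosome 8, Mt2 at chr8:94172368-94172667 and Mt1 at chr8:94178839-94179138. Capitals mark matches to the core of the metal response element, TGCACNC or TGCGCNC, on either strand.
Mt1: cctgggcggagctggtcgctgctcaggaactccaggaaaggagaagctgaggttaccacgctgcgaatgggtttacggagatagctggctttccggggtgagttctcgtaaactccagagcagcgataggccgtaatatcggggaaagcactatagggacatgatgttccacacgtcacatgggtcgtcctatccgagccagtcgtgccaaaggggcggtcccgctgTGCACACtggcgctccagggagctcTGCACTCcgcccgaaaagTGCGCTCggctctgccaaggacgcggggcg
Mt2: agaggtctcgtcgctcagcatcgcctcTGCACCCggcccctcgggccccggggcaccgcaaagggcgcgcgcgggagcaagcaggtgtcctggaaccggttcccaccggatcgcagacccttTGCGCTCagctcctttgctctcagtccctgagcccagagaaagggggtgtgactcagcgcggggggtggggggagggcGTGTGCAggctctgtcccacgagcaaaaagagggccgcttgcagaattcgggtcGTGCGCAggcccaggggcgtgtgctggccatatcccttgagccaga

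The Mt1 window holds 3 such matches and the Mt2 window 4, and not all of them lie before the start site. Counted from that site, they start at -23, 2 and 20 in Mt1 and at -223, -128, -50 and 4 in Mt2. At least 1 match occurs in 25.7% of the 32851 RefSeq promoter windows of this length, and at least 3 in 1.97%. Among the other members, the Gclm window holds 3 matches, the Srxn1 window 1, and the windows of Nfe2l2, Txnrd1, Nqo1 and Osgin1 none. The core of the antioxidant response element, TGACNNNGC, searched on both strands, occurs once in the windows of Nfe2l2, Gclm, Srxn1 and Mt2 and in 1 of the 3 Txnrd1 windows, against 12.4% of all windows. In the Srxn1 window that match starts 28 bases past the start site, and in the Nfe2l2 window it starts at position -240. In the Gclm window the antioxidant match and 1 metal match overlap. A match is a stretch of letters and not a measured binding site.

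Values are deposited log2 expression, so that a difference of 1 is a 2-fold difference, and levels of different genes are not compared. Olfactory receptor rows, taken as genes a liver does not express, had a 95th percentile of 3.90, and negative control rows averaged 4.40 to 4.75 per array. Of the members, 9 lay above their array's negative control mean in all 20 arrays, and Nqo1 in 19. All 7 hepatocyte markers were above 3.90, with a summed level of 22.14 to 22.28 across the arrays. Among them Alb, Apoa1 and Ttr averaged 19.89, 19.87 and 19.88, close to the highest of all values, 19.93. The sum therefore cannot show whether hepatocyte content was alike. Array medians over all rows were 4.46 to 4.56 and correlations between arrays 0.987 to 0.993. Mice 10_6 and 30_8 stood apart in several of the members, and results that rest on mouse 10_6 are also given without it. In bulk liver RNA, fewer cells of a type and less RNA per cell cannot be told apart.

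No member passed in any of 8 tests of maternal temperature, which were 6 pairwise comparisons, a test over the 4 groups and a slope. The smallest limma adjusted p of a member was 0.299, for Gclc between 18 and 23 °C offspring. All clusters together gave few calls too. Adjusted p was under 0.05 in 0.00901% of clusters for 10 against 23 °C, and in 0% for 18 against 23 °C, 30 against 23 °C, 10 against 30 °C, 18 against 30 °C, 10 against 18 °C, the 4-group test and the slope. The members are therefore described below by their levels and intervals, and a p that misses the threshold does not show that groups are alike.

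**Figure D1:**
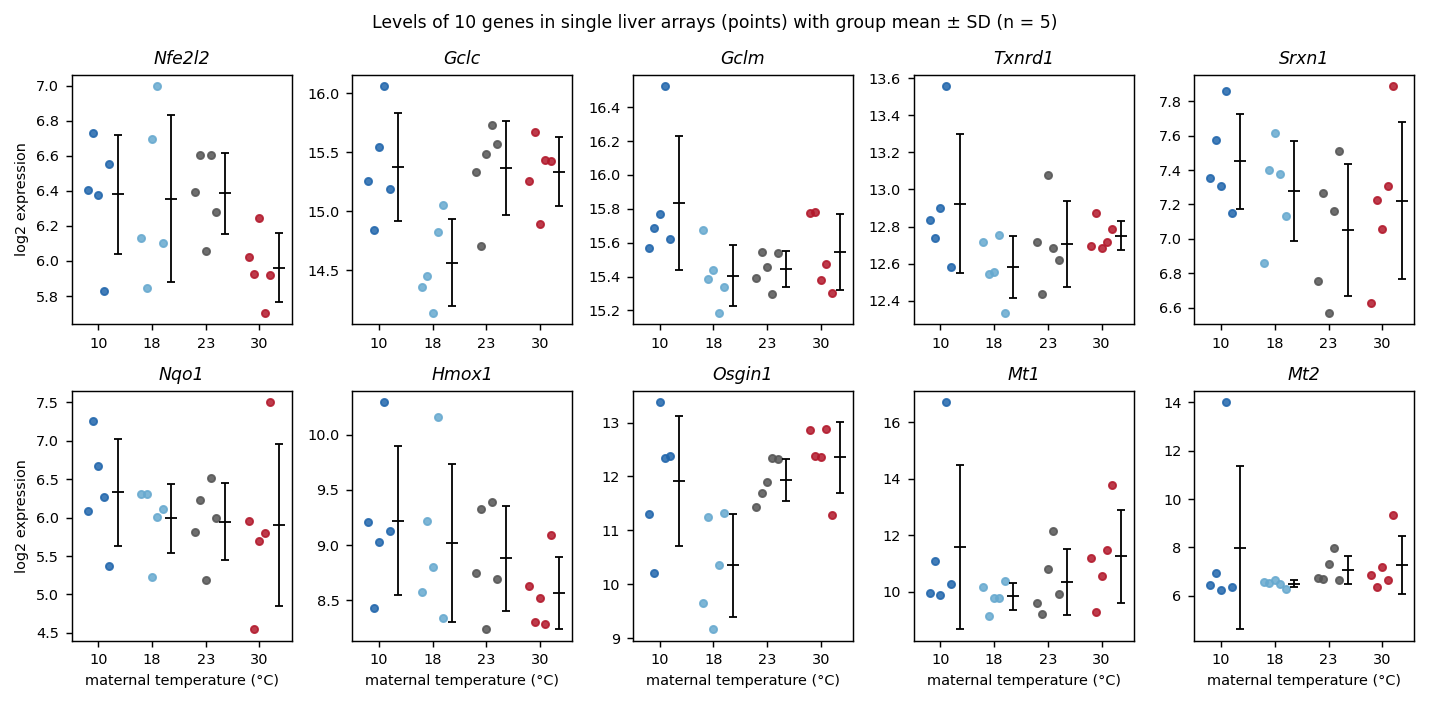
Log2 expression of each of the 10 genes (vertical axes, own scale per gene) in single arrays (points) by maternal temperature in °C, with group mean ± SD in black (n = 5). Gclc and Osgin1 have their lowest group means in 18 °C offspring (14.57 and 10.35), and single points set the wide spread of Mt1 and Mt2.

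The log2 level of Nfe2l2 itself was 6.40, 6.73, 6.38, 5.83 and 6.56 in 10 °C offspring and 6.13, 5.85, 6.70, 7.0 and 6.10 in 18 °C offspring. It was 6.39, 6.61, 6.06, 6.60 and 6.28 in 23 °C offspring and 6.02, 5.92, 6.24, 5.70 and 5.92 in 30 °C offspring. The 3 groups from 10 to 23 °C had nearly the same mean (6.38 ± 0.34, 6.36 ± 0.48 and 6.39 ± 0.23, SD, n = 5), and the 30 °C group lay lowest at 5.96 ± 0.20, with some overlap with each of them. The difference of 30 °C from 23 °C offspring was -0.42 ± 0.20 (SE, 1.34-fold lower, 95% interval -0.84 to -0.01, limma adjusted p = 0.978), and that of 10 °C from 30 °C offspring was 0.42 ± 0.20 (limma adjusted p = 0.733). These comparisons share the 30 °C arrays. Without mouse 10_6 the difference of 10 °C from 30 °C offspring was 0.55 ± 0.20 (SE, limma adjusted p = 0.509). The slope was -0.19 ± 0.10 per 10 °C with that mouse and -0.26 ± 0.10 without it (SE, limma adjusted p = 0.636 and 0.405). The mouse with the highest Nfe2l2 was 18_5 and that with the lowest was 30_7, and mouse 10_6, highest for 6 of its companions, had the second lowest value of the 20.

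Gclc and Gclm encode the catalytic and the modifier subunit of glutamate-cysteine ligase, the first enzyme of glutathione synthesis. Gclc was 14.36, 14.45, 14.14, 14.82 and 15.06 in 18 °C offspring, against 15.33, 14.70, 15.49, 15.73 and 15.57 in 23 °C offspring. In 10 °C offspring it was 15.26, 14.84, 15.55, 16.06 and 15.19, and in 30 °C offspring 15.26, 15.67, 14.89, 15.44 and 15.43. The 18 °C group was thus the low one, with its 3 lowest arrays below every array of the other groups, and the other 3 means stood between 15.34 and 15.38. Gclc differed by -0.80 ± 0.23 between 18 and 23 °C offspring (SE, 1.74-fold lower, 95% interval -1.27 to -0.33, limma adjusted p = 0.299). The difference was -0.77 ± 0.23 against 30 °C offspring (limma adjusted p = 0.383), and 10 °C offspring exceeded 18 °C offspring by 0.81 ± 0.23 (limma adjusted p = 0.417). Without mouse 10_6 the last of these was 0.64.

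Gclm followed another order. It was 15.57, 15.69, 15.77, 16.53 and 15.62 in 10 °C offspring, above all 5 control arrays at 15.39, 15.55, 15.46, 15.30 and 15.54. The 18 °C arrays held 15.68, 15.39, 15.44, 15.19 and 15.34 and the 30 °C arrays 15.78, 15.78, 15.38, 15.48 and 15.30, both overlapping the controls. Gclm was 0.39 ± 0.16 higher in 10 °C than in 23 °C offspring (SE, 1.31-fold, limma adjusted p = 0.358) and 0.43 ± 0.16 higher than in 18 °C offspring (limma adjusted p = 0.524). Mouse 10_6 supplied much of this. Without it the differences were 0.22 ± 0.14 and 0.26. The 10 and 23 °C groups were parted only narrowly, by mice 10_2 (15.57) and 23_2 (15.55). Leaving out the highest mouse could not make them overlap. Background control rows were also higher in 10 °C than in 23 °C arrays (3.71 ± 0.02 and 3.65 ± 0.02, SD, n = 5). With that level as a covariate the Gclm difference was 0.32 ± 0.20 (SE). In 18 °C arrays the background level was 3.71 ± 0.04 (SD, n = 5). With the covariate, Gclc differed by -0.63 ± 0.27 between 18 and 23 °C offspring (SE, limma adjusted p = 0.835) and Gclm by -0.11 ± 0.20. The gap between the subunits was thus plainest in 18 °C offspring. Without the covariate, Gclc differed there from controls by -0.80 and Gclm by -0.04. That difference between genes was not tested.

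Txnrd1 encodes cytosolic thioredoxin reductase. Group means ran from 12.58 ± 0.17 in 18 °C to 12.92 ± 0.37 in 10 °C offspring, with 12.71 ± 0.23 in controls and 12.75 ± 0.08 in 30 °C offspring (SD, n = 5). Only the extremes of that order had an unadjusted p under 0.05 (0.34 ± 0.16, SE, limma adjusted p = 0.601), and the difference was 0.19 without mouse 10_6, whose 13.56 was the highest value. Srxn1, sulfiredoxin, which repairs overoxidised peroxiredoxins, averaged 7.45 ± 0.28 in 10 °C, 7.28 ± 0.29 in 18 °C, 7.05 ± 0.38 in 23 °C and 7.22 ± 0.46 in 30 °C offspring (SD, n = 5). All groups overlapped. Its largest difference, 0.40 ± 0.21 between 10 and 23 °C offspring (SE), had a limma adjusted p of 0.478.

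Nqo1, a quinone reductase often used as a readout of NRF2 activity, was dim and variable. It read 6.09, 7.25, 6.68, 6.27 and 5.37 in 10 °C offspring, 6.31, 6.31, 5.22, 6.01 and 6.12 in 18 °C offspring, 5.81, 6.23, 5.18, 6.52 and 6.00 in controls and 5.96, 4.55, 5.69, 5.80 and 7.51 in 30 °C offspring. The 30 °C group thus held both the lowest mouse, 30_5, at the level of negative control rows, and the highest, 30_8. Its spread within groups (SD 0.72) was higher than that of 98.8% of all clusters, whose median was 0.29. Group means stayed between 5.90 and 6.33, and the 95% interval of 30 °C minus 23 °C, -0.87 to 0.77, was wide enough to hold a difference of over 1.5-fold in either direction.

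Hmox1, haem oxygenase 1, averaged 9.22 ± 0.68 in 10 °C, 9.02 ± 0.72 in 18 °C, 8.88 ± 0.48 in 23 °C and 8.56 ± 0.33 in 30 °C offspring (SD, n = 5). The means descend with warmth, and the slope was -0.32 ± 0.15 per 10 °C (SE, limma adjusted p = 0.595), and all groups overlapped. Mice 10_6 (10.30) and 18_5 (10.17) were far above the other 18, whose highest value was 9.39. Without mouse 10_6 the slope was -0.20 ± 0.14. Resident macrophages of the liver, the Kupffer cells, express Hmox1 strongly. Of 12 Kupffer and macrophage markers 11 had a row, and all 11 were above 3.90. All 11 had slopes of the same sign as Hmox1, with a median of -0.22 per 10 °C against -0.003 over all clusters, and 0 passed. The summed level of these markers ranged over 11.60 to 12.06 in 10 °C, 11.43 to 12.24 in 18 °C, 10.80 to 11.85 in 23 °C and 10.87 to 12.05 in 30 °C offspring. Their part in the Hmox1 slope was not tested.

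Osgin1, an oxidative stress-induced growth inhibitor, had the largest difference between groups of the 8 genes other than the metallothioneins. It was 9.65, 11.24, 9.16, 10.36 and 11.32 in 18 °C offspring and 11.43, 11.70, 11.89, 12.34 and 12.33 in controls. In 30 °C offspring it was 12.87, 12.38, 12.36, 12.89 and 11.28, and in 10 °C offspring 11.30, 10.21, 13.38, 12.34 and 12.38. Every 18 °C array lay below every control array, while the 18 and 30 °C groups touched only through mouse 30_8, and the 10 °C group held the highest mouse of all (10_5) beside 2 within the range of 18 °C offspring (10_2 and 10_4). Osgin1 differed by -1.59 ± 0.47 between 18 and 23 °C offspring (SE, 3.01-fold lower, 95% interval -2.56 to -0.62, limma adjusted p = 0.323). Against 30 °C offspring the difference was -2.01 ± 0.47 (4.02-fold lower, 95% interval -2.98 to -1.03, limma adjusted p = 0.352). Between 10 and 18 °C offspring it was 1.58 ± 0.47 (limma adjusted p = 0.440). In order of mean stood 30, 23, 10 and 18 °C offspring (12.35 ± 0.65, 11.94 ± 0.40, 11.92 ± 1.21 and 10.35 ± 0.95, SD, n = 5). The first 3 did not differ beyond their spread, with 0.42 ± 0.47 (SE) between 30 and 23 °C offspring. In the 4-group test Osgin1 ranked 97 and Gclc 192 of 22206 clusters by p, with limma adjusted p = 0.345 and 0.357.

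**Figure D2:**
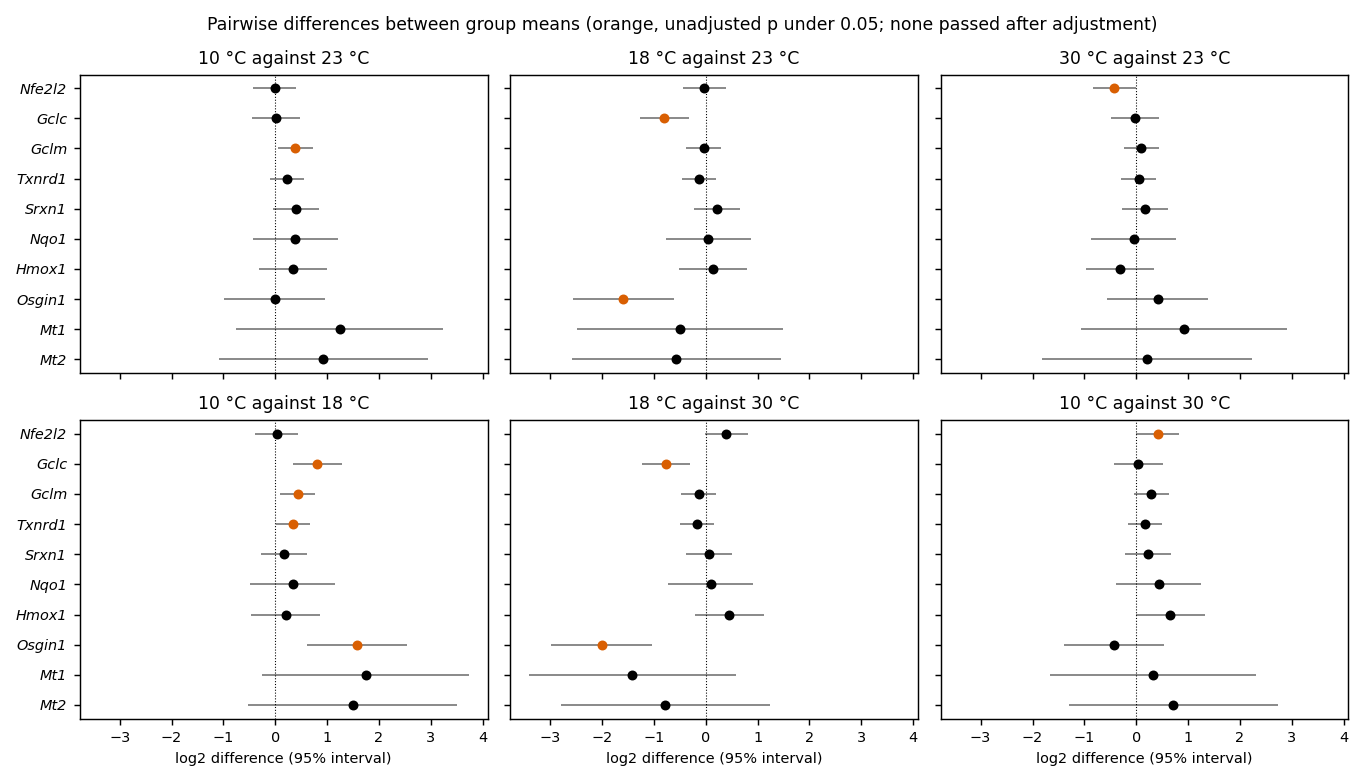
Log2 differences between group means (horizontal axes) for each gene in the 6 pairwise comparisons, with limma's 95% intervals. Orange marks an unadjusted p under 0.05, as for Gclc and Osgin1 in the comparisons with 18 °C offspring, and no difference passed after adjustment. The intervals of Mt1 and Mt2 are the widest, and mouse 10_6 enters their width in all 6 comparisons. Each gene's variance is shared by all groups.

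Counts of members at an unadjusted p under 0.05 are set here against those of all clusters. At an unadjusted p under 0.05 stood 1 of 10 members between 10 and 23 °C offspring (Gclm), where 11.6% of all clusters did. Between 18 and 23 °C offspring it was 2 of 10 (Gclc, Osgin1) against 9.25%, and between 30 and 23 °C offspring 1 of 10 (Nfe2l2) against 4.84%. Between 10 and 30 °C offspring it was 1 of 10 (Nfe2l2) against 6.76%, between 18 and 30 °C offspring 2 of 10 (Gclc, Osgin1) against 8.21%, and between 10 and 18 °C offspring 4 of 10 (Gclc, Gclm, Txnrd1, Osgin1) against 8.1%. The 4-group test gave 2 of 10 (Gclc, Osgin1) against 9.86%, and the slope 1 of 10 (Hmox1) against 8.15%. Most of these counts lie near the background, and counts this small say little about the members. The 4 of 10 between 10 and 18 °C offspring lies above it, but members share mice, and it was 2 without mouse 10_6. Without mouse 10_6 the counts moved both ways. They were 0 of 10 for 10 against 23 °C (12.6% of all clusters), 2 for 18 against 23 °C (9.51%), 1 for 30 against 23 °C (4.97%) and 1 for 10 against 30 °C (8.15%). They were 4 for 18 against 30 °C (8.55%), 2 for 10 against 18 °C (7.31%), 3 in the 4-group test (10.6%) and 2 for the slope (9.69%).

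Groups failed to overlap for 1 member between 10 and 23 °C offspring (Gclm, 2.45% of all clusters) and for 1 between 18 and 23 °C offspring (Osgin1, 1.81%). No member had groups apart between 30 and 23 °C (0.752%), 10 and 30 °C (0.982%), 18 and 30 °C (1.41%) or 10 and 18 °C offspring (1.42%). In direction, all 10 members had a higher mean in 10 °C than in 18 °C offspring, with a median difference of 0.39 against 0.001 over all clusters. In 10 against 23 °C offspring 8 of 10 were higher (median 0.36 against 0.002), in 18 against 23 °C 3 of 10 (median -0.08 against -0.002) and in 30 against 23 °C 6 of 10 (median 0.07 against -0.006). Without mouse 10_6, 8 of 10 members were higher in 10 than in 18 °C offspring (median 0.22) and 6 of 10 in 10 than in 23 °C offspring (median 0.06). These comparisons share arrays, and members share mice.

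The metallothioneins had the widest range of all members. Mt1 was 9.94, 11.09, 9.89, 16.71 and 10.25 in 10 °C offspring, 10.15, 9.13, 9.76, 9.76 and 10.37 in 18 °C offspring, 9.60, 9.20, 10.80, 12.15 and 9.91 in controls and 11.19, 9.26, 10.56, 11.46 and 13.79 in 30 °C offspring. Mt2 was 6.44, 6.93, 6.23, 14.02 and 6.35 in 10 °C offspring, 6.59, 6.52, 6.65, 6.48 and 6.26 in 18 °C offspring, 6.72, 6.70, 7.31, 7.96 and 6.64 in controls and 6.84, 6.37, 7.20, 6.64 and 9.34 in 30 °C offspring. Both genes had the same 3 highest mice, 10_6, then 30_8, then 23_17, each from a different group, while the 18 °C group held none and had the smallest spread. In the other 17 mice Mt1 stayed within 9.13 to 11.46 and Mt2 within 6.23 to 7.31. From the lowest to the highest mouse the range was 192-fold for Mt1 and 220.1-fold for Mt2. By spread within groups, both ranked above 99.9% of all clusters.

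Group means of the metallothioneins followed these single mice in large part. Mt1 averaged 11.58 ± 2.91 in 10 °C, 9.83 ± 0.47 in 18 °C, 10.33 ± 1.17 in 23 °C and 11.25 ± 1.65 in 30 °C offspring, and Mt2 averaged 7.99 ± 3.38, 6.5 ± 0.15, 7.07 ± 0.57 and 7.28 ± 1.19 (SD, n = 5). All groups overlapped, and the medians of Mt2 lay between 6.44 and 6.84. Medians of Mt1 were 10.25, 9.76, 9.91 and 11.19 in 10, 18, 23 and 30 °C offspring. The 30 °C group was thus highest in Mt1 by median, and its mice other than 30_8 averaged 10.62. Between 10 and 23 °C offspring Mt1 differed by 1.24 ± 0.96 and Mt2 by 0.93 ± 0.98 (SE, limma adjusted p = 0.651 and 0.763). Without mouse 10_6 both differences turned sign, to -0.04 ± 0.63 and -0.58 ± 0.41. The same happened between 10 and 30 °C offspring, where Mt1 went from 0.32 to -0.96 and Mt2 from 0.72 to -0.79. Between 10 and 18 °C offspring Mt1 went from 1.74 to 0.46 and Mt2 from 1.49 to -0.01. No direction of a metallothionein in the 10 °C group can therefore be read from the group means. The fit shares a gene's variance among all groups, so mouse 10_6 also widened comparisons without its group. Between 18 and 30 °C offspring Mt1 differed by -1.42 ± 0.96, and by -1.42 ± 0.59 without that mouse (SE, limma adjusted p = 0.736 and 0.510). Mt2 differed by -0.78 ± 0.98 and -0.78 ± 0.38 (0.884 and 0.602). Slopes per 10 °C turned from -0.13 to 0.54 for Mt1 and from -0.29 to 0.45 for Mt2.

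**Figure D3:**
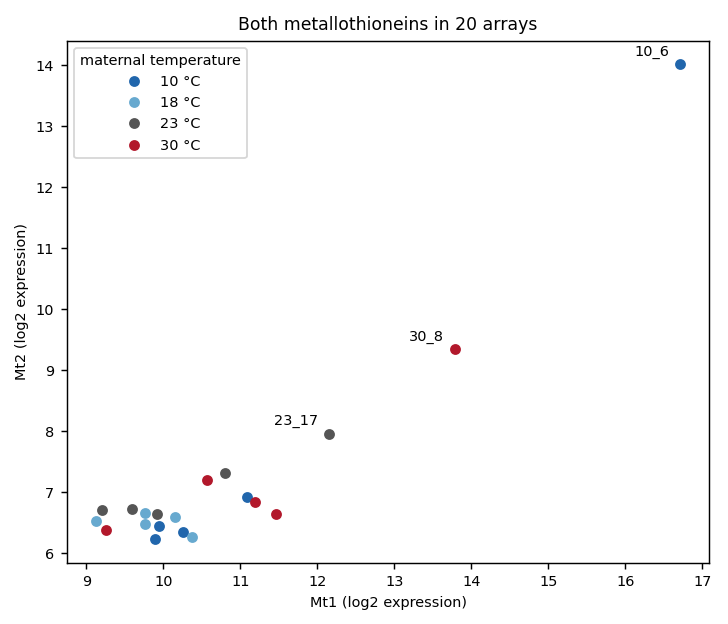
Log2 expression of Mt2 (vertical) against Mt1 (horizontal) in 20 arrays, coloured by maternal temperature, with the 3 highest mice named. Mouse 10_6 lies at 16.71 and 14.02, 30_8 at 13.79 and 9.34 and 23_17 at 12.15 and 7.96, apart from the other 17.

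Mt1 and Mt2 varied together between mice of the same group. Over the 20 arrays, with group means removed, Pearson's r was 0.935 (permutation p = 0.00027, adjusted p = 0.0122 over the 45 pairs of members) and Spearman's rho was 0.771 (permutation p = 0.00307, adjusted p = 0.138). Without the 2 mice farthest from the median of Mt1, 10_6 and 30_8, r was 0.742. Leaving out mouse 10_6 alone gave r = 0.856, which no longer passed (permutation adjusted p = 0.0752), and no pair passed without mouse 30_8, 23_15 or 23_17 either. None of the other pairs passed in the full set of arrays. The next by p was Hmox1 with Mt2 (r = 0.581, permutation p = 0.0175, adjusted p = 0.270), and r was 0.290 without mouse 10_6. Txnrd1 with Mt2 had r = 0.724 (permutation p = 0.0479, adjusted p = 0.270), and 0.145 without that mouse. Nfe2l2 went the other way from Gclm (r = -0.516, permutation p = 0.0406, adjusted p = 0.270), with -0.045 left once mice 18_5 and 10_6 were out. Gclc and Osgin1 had r = 0.529 (permutation p = 0.0388, adjusted p = 0.270) and 0.537 without mouse 10_6. With the background level of each array as a covariate, the number of pairs that passed stayed at 1.

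Mouse 10_6 held the highest metallothioneins. Set against the other 4 mice of its group, Mt2 was 7.53 and Mt1 6.42 log2 units higher (185-fold and 85.6-fold), the first and second largest differences of all 22206 clusters in that mouse. It also had the highest level of the 20 mice for Gclc, Gclm, Txnrd1 and Hmox1, so 6 of 10 members peaked in it, where 6.75% of all clusters did. Above its group stood Hmox1 by 1.35 (2.55-fold), Gclm by 0.86 (1.82-fold), Gclc by 0.86 (1.81-fold), Txnrd1 by 0.79 (1.73-fold), Osgin1 by 0.52 and Srxn1 by 0.51. Nqo1 did not follow (-0.08), and Nfe2l2 differed by -0.69. The mouse was singled out after its values were seen, and its differences are values of 1 animal with no test.

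**Figure D4:**
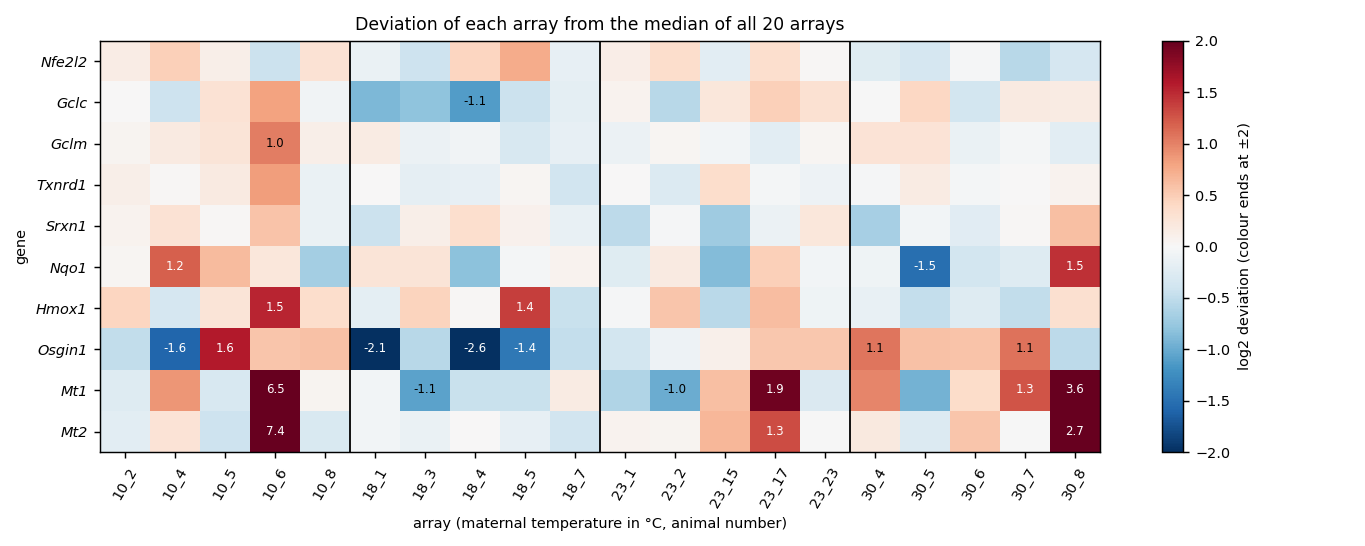
Log2 deviation of each gene (rows) in each array (columns, grouped by maternal temperature) from its median over all 20 arrays. Colour ends at ±2, and deviations of 1 or more are printed. Mouse 10_6 is above the median in 9 of 10 genes, mouse 10_5 in 8, and mice 10_2, 10_4, 23_17 and 30_8 in 7 each.

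Acute phase genes, whose products the liver secretes into blood in inflammation, were also high in mouse 10_6. Of 14 with a row, 6 had their highest level there, namely Saa1, Saa2, Saa3, Hp, Lcn2 and Fgb. The serum amyloid genes Saa2 and Saa1 were 4.43 and 4.07 above the rest of the group, at ranks 3 and 4 of all clusters, and Lcn2, an iron-sequestering lipocalin, was 3.51 above. Hp, haptoglobin, was 1.0 above, while Orm1 differed by 0.03 and Hamp, the iron hormone hepcidin, by -0.88. The mean of the list was highest of the 20 in this mouse (1.0 above the median). Means of the glucocorticoid-responsive list (-0.35) and of the heat shock list (-0.47) were the lowest of the 20 there. Members of the former went both ways. Tsc22d3 was -1.50 from its median, while Fkbp5, named after its values were seen, was 1.51 above (9.94) and, in mouse 30_8, 1.82 above (10.25), its 2 highest levels. Neutrophil markers, 3 with a row and 1 above 3.90, had a mean 0.17 above the median, the fourth highest. Kupffer markers were 0.12 above the median, the seventh highest. The part of these cell types in the profile was not tested.

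Other zinc and metal handling genes stood closer to the group in mouse 10_6 than Mt1 and Mt2 did. Of 12 with a row, 4 peaked there (Mt4, Slc30a1, Slc39a14, Slc40a1). Slc40a1, the iron exporter ferroportin and also an NRF2 target, was 13.87, 1.55 above its group. Slc30a1, the zinc exporter that is itself an Mtf1 target, was 0.27 above its group, and Slc39a14, a zinc importer, 0.40 above. Mtf1 differed by -0.32. Mt3, the brain metallothionein, stood at 2.34, not above background, and Mt4 at 4.41, at the level of negative control rows. Of NRF2's regulators only Sqstm1, the autophagy receptor p62 that competes for Keap1, peaked there (14.80, 1.07 above). Keap1 differed by -0.07.

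Mouse 30_8, with the second highest metallothioneins, shared some high NRF2 targets with mouse 10_6 and not others. Nqo1 was 7.51, 2.01 above the other 4 mice of its group (4.02-fold), and Srxn1 was 7.89, 0.84 above, next to 7.86 in mouse 10_6. Hmox1 was 0.66 above (1.58-fold). Mt1 was 3.17 above (9.01-fold) and Mt2 2.58 above (5.97-fold). Gclc (0.11), Txnrd1 (0.04) and Gclm (-0.30) were close to the group, and Osgin1 differed by -1.35. Nqo1 and Srxn1, the latter by 0.03 over mouse 10_6, had their highest level of the 20 in mouse 30_8, and 4.78% of all clusters did. This mouse, too, was singled out after its values were seen.

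Among 31 other known NRF2 targets with a row, 10 peaked in mouse 30_8 and 7 in mouse 10_6. Those of mouse 30_8 included 4 glutathione transferases and an exporter of drugs. Gsta2 was 2.89, Gstm3 2.81, Gsta4 1.10 and Gstm1 0.68 above the group, Abcc4, an exporter of organic anions, was 2.39 above, and Cbr1, a carbonyl reductase, was 1.27 above. Abcc2, Ftl1, Prdx1 and Gpx4 were the remaining 4. Those of mouse 10_6 were Ephx1 (1.07 above its group), an epoxide hydrolase, Aox1 (0.93), Slc48a1 (0.88), a haem transporter, Abcc3 (0.80) and Gsr (0.67), glutathione reductase, with Fth1 and Blvrb. Of these, Gsr and Aox1 were at their second highest level in mouse 30_8, as Ftl1 and Gpx4 were in mouse 10_6. In mouse 10_6 Abcc4 differed from its group by -0.32 and Gsta4 by -0.21. The mean of the 31 genes was highest in mouse 30_8 (0.46 above the median) and 0.15 above the median in mouse 10_6.

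**Figure D5:**
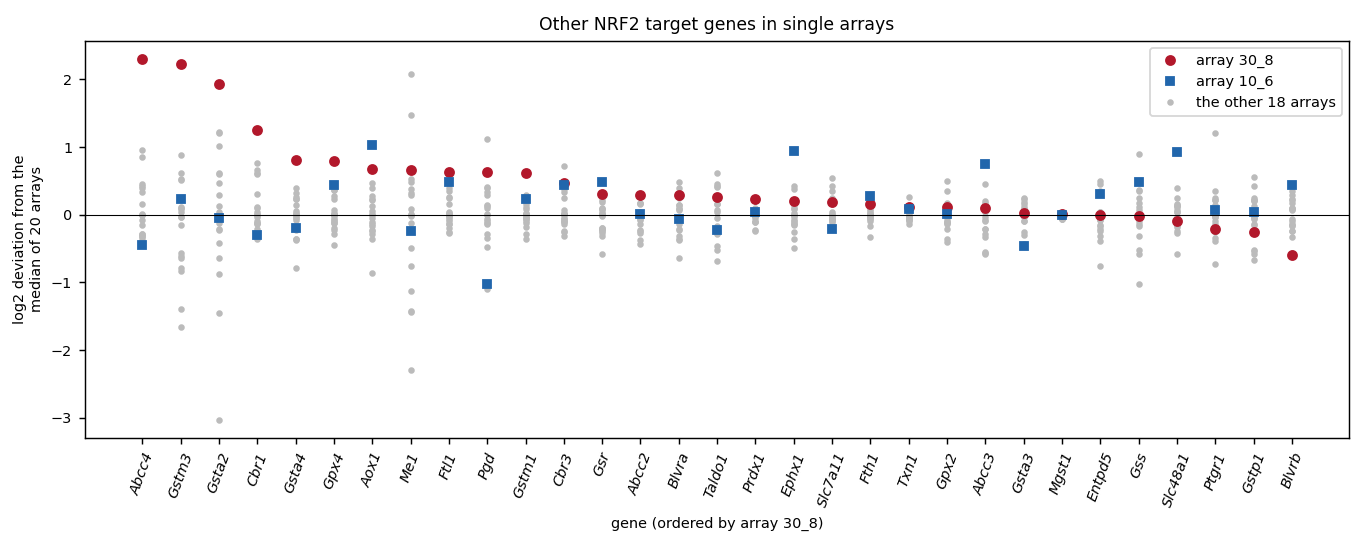
Log2 deviation from the median of 20 arrays (vertical) for 31 other NRF2 targets (horizontal, ordered by their value in array 30_8). Red circles are array 30_8, blue squares array 10_6 and grey points the other 18. Array 30_8 is highest for 10 genes, among them the 6 leftmost, and array 10_6 for 7 others.

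Across the groups, the same lists held no gene that passed. Of the 31 other NRF2 targets, 12 were higher and 19 lower in 10 than in 23 °C offspring (median -0.03), 14 higher and 17 lower in 18 °C (median -0.02) and 13 higher and 18 lower in 30 °C offspring (median -0.02). Medians over all clusters were 0.002, -0.002 and -0.006. The 3 with the smallest p in the 4-group test were Me1, malic enzyme, Entpd5 and Gstp1 (limma adjusted p = 0.369, 0.372 and 0.388). Me1, which also serves fat synthesis, was 15.43 ± 0.93 in 18 °C offspring against 14.75 ± 0.40 in 23 °C, 14.35 ± 0.67 in 10 °C and 13.63 ± 1.08 in 30 °C offspring (SD, n = 5). Its highest mean was thus in the group where Gclc and Osgin1 had their lowest. Gstp1 was lowest in 18 °C offspring (17.39 ± 0.27 against 17.86 ± 0.12 in controls), while Entpd5 was highest there (14.33 ± 0.19 against 13.88 ± 0.19). The means of these NRF2 targets did not follow one order of the groups.

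Of 11 regulators of NRF2, 7 were higher and 4 lower in 10 than in 23 °C offspring (median 0.08), and 5 higher and 6 lower in 18 °C offspring (median -0.06). Keap1 was 9.73 ± 0.15, 9.68 ± 0.10, 9.53 ± 0.07 and 9.72 ± 0.20 in 10, 18, 23 and 30 °C offspring (SD, n = 5), and its 4-group limma adjusted p was 0.758. Keap1 is given for its role, and not for its p. The 3 with the smallest p were Cul3, Nfe2l1 and Maff (limma adjusted p = 0.598, 0.634 and 0.667), of which Maff, with a mean of 3.27, was not above background. Cul3, the ligase scaffold, was 10.53 ± 0.10 in 10 °C and 10.25 ± 0.16 in 23 °C offspring.

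Metal handling genes were 7 higher and 5 lower in 10, 18 and 30 °C offspring alike, each against controls (medians 0.04, 0.06 and 0.04). Their leading genes were Cp, ceruloplasmin, Slc30a1 and Slc39a4 (limma adjusted p = 0.454, 0.468 and 0.527). Cp was 16.83 ± 0.17 in 18 °C offspring against 17.23 ± 0.11 in controls (SD, n = 5). Of 10 genes of haem and iron handling, some of them also in the lists above, 6 were higher in 10 than in 23 °C offspring, 5 in 18 °C and 6 in 30 °C offspring. Fech, which inserts iron into haem, led them (13.03 ± 0.14 in 10 °C and 12.61 ± 0.27 in 23 °C offspring, limma adjusted p = 0.429), followed by Cd163 (0.561), the haemoglobin receptor of macrophages, and Alas1 (0.801), the first enzyme of haem synthesis.

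Stress lists held no gene that passed either. All 9 heat shock genes with a row were lower in 10 than in 23 °C offspring (median -0.79 against 0.002 over all clusters). Of them 7 had an unadjusted p under 0.05, as did 11.6% of all clusters, and 0 passed after adjustment. Hsp90aa1 was 13.25 ± 0.17 against 14.13 ± 0.48 (SD, n = 5, 4-group limma adjusted p = 0.380), and the cochaperones Dnajb1 and Hsph1 followed (0.430 and 0.454). Control mouse 23_1 held the highest level of 8 of the 9. All 14 acute phase genes were lower in 18 than in 23 °C offspring (median -0.27 against -0.002 over all clusters). Of them 3 had an unadjusted p under 0.05, as did 9.25% of all clusters, and 0 passed after adjustment. In 10 against 23 °C offspring 8 were higher and 6 lower (median 0.04). Smallest by p in the 4-group test were Orm2, Itih3 and Orm3 (limma adjusted p = 0.444, 0.454 and 0.488). Orm2 was lowest in 10 °C offspring (8.85 ± 0.38, with 9.04 ± 0.37 in 18 °C and 9.61 ± 0.44 in 23 °C offspring), as was Orm3. Orm3, with a mean of 4.04, lay below the mean of negative control rows. Of 10 glucocorticoid-responsive genes, 7 were lower in 10 than in 23 °C offspring (median -0.28) and 5 in 18 °C offspring (median 0.11). They were led by Tsc22d3 (9.61 ± 0.70 in 10 °C, 10.83 ± 0.45 in 18 °C and 10.57 ± 0.94 in 23 °C offspring, 4-group limma adjusted p = 0.476), Lpin1 (0.517) and Mertk (0.540).

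For each member, the 2 non-member genes with the highest r over the 20 arrays were named, as a description with no test. They were taken among 11190 clusters with a mean above 3.90, the bound from olfactory receptor rows. Mt2 was most like Saa2 (r = 0.922) and Lcn2 (0.911), and without mice 10_6 and 30_8 the values were -0.13 and 0.311. Mt1 was most like Nap1l1 (0.898) and Sqstm1 (0.871), with 0.554 and 0.497 left. All 4 likenesses were thus much lower without those mice. Gclm was most like Gfra1 (0.907) and Acadvl (0.883), with 0.738 and 0.662 left without mice 10_6 and 18_1, and Txnrd1 was most like Glg1 (0.820) and Lcn2 (0.794), with 0.559 and 0.426 left without mice 10_6 and 23_15. Gclc was most like Fgb (0.893), a fibrinogen chain, and Myo1e (0.868), and kept 0.792 and 0.766 without mice 23_2 and 10_6. Osgin1 was most like Extl2 (0.840) and Avpr1a (0.811), the vasopressin receptor, and kept 0.737 and 0.772 without mice 10_4 and 10_5. Nfe2l2 was most like Bmp10 (0.859) and Fhl1 (0.858), and kept 0.835 and 0.820 without mice 18_5 and 10_6. Srxn1 was most like Zscan21 (0.790) and Zbtb11os1 (0.777), with 0.827 and 0.760 without mice 30_4 and 30_8. Nqo1 was most like Pi4k2a (0.857) and Mthfsl (0.806), with 0.672 and 0.548 left without mice 30_8 and 30_5. Hmox1 was most like Zdhhc14 (0.820) and Pts (0.772), with 0.734 and 0.708 left without mice 18_5 and 10_6. Zdhhc14 and Zbtb11os1 averaged 4.45 and 4.74, at the level of negative control rows. No pair of members shared a closest gene except Txnrd1 and Mt2, through Lcn2.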

How the data were processed

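One array was run per mouse. The deposited table holds log2 expression values, which the authors made with RMA and the Transcriptome Analysis Console per the submitters' processing notes; versions, settings and genome build are not given in the sources used here. RMA gives the probe intensities of all arrays one distribution, which hides any change common to most transcripts, and it shrinks differences of dim clusters. Of 28846 rows, 6640 are control rows. The platform annotation gave 1 symbol to 19572 of the 22206 clusters, several to 0 and none to 2634. No pair of arrays held identical values. The number of arrays limits the precision.

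limma 3.58.1 (R 4.3.3) was run on all clusters and 20 arrays with 4 group means and moderated variances, giving 6 pairwise contrasts, a moderated F-test and a slope per 10 °C. Tests are two-sided, with Benjamini-Hochberg adjustment over 22206 clusters within each test and a threshold of 0.05. Correlations used 100000 permutations of arrays within groups. Single mice were compared with the mean of the other 4 of their group. Fits were tested on simulated data with independent normal noise and a shift common to all 10 °C arrays. That check does not cover single outlying mice or shared litters. The members and lists were chosen with earlier results of these data known. Of each list, genes that pass any test and the 3 with the smallest 4-group p are named; other listed genes, and single mice, were chosen after their values were seen. Rows were not found for 5 of 36 other NRF2 targets (G6pdx, Tkt, Prdx6, Gsta1, Ugt1a6a), 1 of 10 heat shock genes (Hspa8) and 1 of 12 macrophage markers (Cd68), which are not analysed here. Other cell type lists were computed, and 0 of their genes passed in any test. Alternatives were another variance model, only the compared groups, the background level as a covariate, centred arrays, a filter on dim clusters, the animal number as a block, and each array left out in turn.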

Additional observations from a re-analysis of the deposited data

Results flagged for a closer look

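Of 40 groups of 5 values (10 genes in 4 groups), 5 held 1 mouse whose gap to the nearest other exceeded Dixon's 95% critical value of 0.71 of the group's range; chance flags about 1 in 20 groups. Mouse 10_6 was the far one for Mt1 (16.71), Mt2 (14.02) and Gclm (16.53), and mouse 30_8 for Mt2 (9.34). In 18 °C offspring, mouse 18_4 was the low one for Nqo1 (5.22), and it also held the lowest Gclc and Osgin1 of all 20 mice (14.14 and 9.16). Hmox1 of mouse 10_6 (10.30) and Nqo1 of mouse 30_8 (7.51) were highest of all 20 without meeting that criterion.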

How the results depend on the processing

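No member passed in any of the 8 tests under any alternative that was run, and the counts stayed at 0. The smallest limma adjusted p of a member over all alternatives was 0.134, for 18 against 30 °C offspring, where the main value was 0.352. Each of the 11 differences of single members with an unadjusted p under 0.05 kept its sign. Leaving out 1 mouse at a time moved Gclm in 10 against 23 °C offspring over 0.22 to 0.46, Gclc in 18 against 23 °C over -0.96 to -0.69 and Osgin1 in 18 against 30 °C over -2.27 to -1.71. With the background level as a covariate, that Gclc difference was smaller, at -0.63. The number of member pairs whose correlation passed ranged over 0 to 1 with 1 mouse left out, and was 0 without mouse 10_6, 30_8, 23_15 or 23_17. With the animal number as a replicate block, the count of members was 0 in all 8 tests and the smallest limma adjusted p 0.639. Mice whose number occurs in only 1 group add nothing to the differences in that fit. Of 11 same-numbered pairs across groups, deviations correlated at -0.215 to 0.173, with 1 pair over 0.1. No reference value is known for mice that were paired, so whether the numbers pair the mice cannot be told. Over all clusters, calls between 10 and 23 °C offspring ranged over 0 to 22 with 1 mouse left out, against 2 in the full fit. The signal of Nqo1 lay near negative control rows in mouse 30_5, which limits how low it can be read.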

Other observations

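Mice 30_8 and 23_17, the highest for both metallothioneins after mouse 10_6, had 7 of the 15 named genes furthest above their own group in common, chosen here after their values were seen. Tff3, an intestinal trefoil peptide, was 11.50 and 11.32 in them and 2.43 to 4.27 in the 17 mice other than these and mouse 10_6, where it was 2.96. Asns, asparagine synthetase, was 11.74 and 12.81 against 6.52 to 9.07, Abcd2, a peroxisomal fatty acid transporter, 11.40 and 11.11 against 4.8 to 9.57, and Tcf24 7.73 in both against 3.11 to 4.68. Mmd2, Foxq1 and Myc were the others, and for Foxq1 and Myc some of the 17 mice reached higher values. The anion transporter Slc22a7 differed from the rest of the group by -4.45 and -3.15 in these mice.

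Mouse 10_6 shared none of its 15 with mouse 23_17 and Mt1 and Socs2 with mouse 30_8. Its genes furthest below the group were Thrsp (-5.34), Dhcr7 (-3.36), Fasn (-3.18) and Sqle (-3.01), of fatty acid and sterol synthesis, and the repressor Bcl6 (-3.67). In it 258 clusters were over 1 log2 unit above the other 4 mice and 233 below, against 318 and 150 in mouse 30_8 and 305 and 201 in mouse 23_17. In mouse 18_5, which had the highest Nfe2l2 (7.0) and the second highest Hmox1 (10.17), Acly, Acss2 and Fasn stood 2.22, 1.83 and 1.82 above the group. Metallothioneins were not high there (Mt1 -0.10 and Mt2 -0.03).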
